A study of Caenorhabditis elegans with 2 samples.

Results

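Chromatin immunoprecipitation followed by sequencing (ChIP-seq) placed 5755 of the 30000 pooled peaks of SMA-9 in introns of protein-coding genes on the 5 autosomes, away from exons and from the starts of coding transcripts. A peak was counted here when its summit lay on chromosomes I to V, inside an annotated intron of a coding gene, outside every annotated exon of any gene, and more than 500 bp from every coding transcript start. Of 8056 autosomal summits in coding-gene introns, 510 lay in an exon of another transcript or gene and 1791 lay outside exons but within 500 bp of a coding start, which left the 5755. The animals were whole L2 larvae of Caenorhabditis elegans, male and female pooled, of strain OP130 (unc-119(ed3) III; wgIs130), which carries an integrated transgene coding for eGFP-tagged SMA-9. The only group had 2 biological replicates of this strain, and its animals carry the unc-119(ed3) allele as well as the transgene. Per the labels, the immunoprecipitation was directed at the eGFP fusion. The labels give sma-9 as the antibody, and they give neither the number of animals nor the regulatory sequence that drives the transgene. Lists of a control were not analysed here, and in whole animals binding in a few cells and weak binding in many cells cannot be told apart.

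SMA-9 is a zinc finger transcription factor related to Drosophila Schnurri. In the worm it works with the SMADs of the BMP-like Sma/Mab pathway, which sets body size, and it takes part in patterning of the postembryonic mesoderm. Introns of worm genes are mostly short, and long introns, in particular those near the 5' end of a gene, are known to hold transcriptional enhancers and alternative promoters. First introns of the longer genes are therefore a common place to look for binding of a transcription factor away from promoters.

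The following sequences are the 200 bases around the strongest summit in each of 6 host genes, the 6 with the highest pooled signal on chromosomes II to V, and they show what the strongest intron peaks are made of. They were read from the RefSeq assembly of WBcel235 (ce11), plus strand, at III:1925268-1925467 for pqn-41, III:12612538-12612737 for Y111B2A.12, IV:6881335-6881534 for tre-2, III:8802067-8802266 for zfp-1, IV:6097103-6097302 for lag-1 and IV:8526167-8526366 for pkg-2. Capitals mark the repeat GAGAGA, the palindrome CACGTG (an E-box) and the 10-base word GAGACGCAGA, each on either strand, and marked motifs that touch or overlap run on.
pqn-41: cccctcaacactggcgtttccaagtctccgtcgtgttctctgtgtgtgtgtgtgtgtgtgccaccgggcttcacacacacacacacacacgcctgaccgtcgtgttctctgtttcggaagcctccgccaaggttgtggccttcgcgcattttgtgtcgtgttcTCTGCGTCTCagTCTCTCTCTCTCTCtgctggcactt
Y111B2A.12: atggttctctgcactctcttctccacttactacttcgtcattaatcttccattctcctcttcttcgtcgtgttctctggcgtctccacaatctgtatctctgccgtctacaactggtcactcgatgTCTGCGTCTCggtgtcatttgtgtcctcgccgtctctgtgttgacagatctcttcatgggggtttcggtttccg
tre-2: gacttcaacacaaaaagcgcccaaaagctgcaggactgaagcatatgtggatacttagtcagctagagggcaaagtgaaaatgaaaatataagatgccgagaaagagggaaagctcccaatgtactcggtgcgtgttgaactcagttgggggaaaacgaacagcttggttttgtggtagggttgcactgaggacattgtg
zfp-1: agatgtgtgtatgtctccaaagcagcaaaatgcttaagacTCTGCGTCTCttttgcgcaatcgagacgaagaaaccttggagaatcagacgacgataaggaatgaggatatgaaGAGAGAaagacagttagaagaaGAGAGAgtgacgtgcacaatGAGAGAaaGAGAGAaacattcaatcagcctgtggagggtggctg
lag-1: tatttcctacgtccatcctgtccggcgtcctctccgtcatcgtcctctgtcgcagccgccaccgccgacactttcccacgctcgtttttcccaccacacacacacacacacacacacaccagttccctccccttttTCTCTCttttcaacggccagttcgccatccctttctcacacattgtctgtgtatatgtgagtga
pkg-2: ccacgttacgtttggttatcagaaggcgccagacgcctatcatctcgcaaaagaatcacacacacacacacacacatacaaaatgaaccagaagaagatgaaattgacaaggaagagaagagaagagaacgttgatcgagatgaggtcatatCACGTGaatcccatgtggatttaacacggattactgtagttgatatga
The windows of pqn-41, lag-1 and pkg-2 hold runs of alternating C and A, those of pqn-41, zfp-1 and lag-1 hold GAGAGA, that of pkg-2 holds CACGTG, and those of pqn-41, Y111B2A.12 and zfp-1 hold the 10-base word on the other strand. The window of tre-2 holds none of the 3.

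Intron peaks were about as frequent among the strongest peaks as in the whole list. The authors gave each peak a signal with no stated scale, and peaks were ranked by it. The thresholded list, the authors' shorter list, consists of the 125 peaks of highest pooled signal and covers 0.417% of the pooled peaks. It held 23 of the 5755 intron peaks (0.4%, exact 95% Clopper-Pearson interval 0.254% to 0.599%, which covers counting error over peaks only). Ranks 1 to 1000 are 3.33% of the pooled peaks and held 173 intron peaks (3.01%). The median pooled rank of the intron peaks was 15814, against 14936 for the other 17537 autosomal peaks, and their median signal was 13.9 against 14.2. All these sets share the same 2 libraries, and no test was made of differences between them.

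Introns that meet the rule make up 21.5 Mb, or 26.1% of the autosomes, and held 24.7% of the autosomal peaks. That is 267 peaks per Mb, against 287 per Mb in the rest of the autosomes. Since each relaxed list was filled to 30000 peaks, the density of all intron peaks says little of binding. Across the relaxed list, 3868 intron peaks (67.2%) had a deposited score below 0, and so did 68.6% of all pooled peaks. The peaks overlap in part: 493 intron peaks overlap another intron peak, so they are not independent pieces of sequence. None of the 23 thresholded peaks overlaps another of the 23.

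The 23 thresholded peaks lay in 18 host genes. The highest was in pqn-41 (III:1905958-1939570, plus strand; WBGene00004128), a glutamine-rich protein gene required for programmed death of the linker cell. Its signal was 157 in the pooled list, 103.4 in replicate 1 and 53 in replicate 2, with rank 1 in all 3 lists. The same intron held summits of pooled rank 3, 11 and 58. The peak of rank 3 had a signal of 61.9 in replicate 1 and 39.8 in replicate 2. That of rank 11 had 35.6 and 39.3, and that of rank 58 had 22.7 and 23.6. These 4 summits span 5130 bp of an intron of 7776 bp (III:1919901-1927676), which is intron 1 of the earliest transcript that uses it and has 2 starts of coding transcripts inside its bounds. No other member lies in that intron, and replicate 2 gave it 4 of its 15 highest ranks, 1, 3, 4 and 15.

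Chromatin, Notch and stress regulators were among the next hosts. Intron 4 of Y111B2A.12 (WBGene00013735), 7076 bp long, held the peak of rank 2, with a signal of 65.3 in replicate 1 and 40.2 in replicate 2. In zfp-1 (WBGene00006975), the worm counterpart of the chromatin reader AF10, peaks of rank 18 and 19 lay in different introns, each of them intron 1 of some transcript. The former had a signal of 49.1 in replicate 1 and 16.0 in replicate 2, and the latter had 45.5 and 17.3. In lag-1, which encodes the DNA-binding effector of Notch signalling, the peak of rank 28 had a signal of 39.2 in replicate 1 and 13.4 in replicate 2, 1699 bp into an intron 1 of 5917 bp. In skn-1, which encodes an Nrf-like regulator of the response to oxidative stress, the peak of rank 36 had 29.8 and 20.6, and the noncoding gene T19E7.26 began 115 bp away. All of these lay above the median signal of each replicate's list, 9.50 in replicate 1 and 6.34 in replicate 2.

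Metabolic and signalling enzymes were hosts too. The peak of rank 17 lay in intron 2 of tre-2, a trehalase gene, with a signal of 31.2 in replicate 1 and 25.5 in replicate 2. Intron 4 of pkg-2 (IV:8525261-8532084), a gene for a cyclic GMP-dependent protein kinase, was with that of pqn-41 the only intron that held more than 1 thresholded peak. Its peak of rank 29 had a signal of 35.8 in replicate 1 and 19.3 in replicate 2, and its peak of rank 60 had 34.7 and 6.26. The MAP kinase phosphatase gene vhp-1 held the peak of rank 100 in an intron 1 of 8201 bp, with 18.1 in replicate 1 and 14.8 in replicate 2. A peak of rank 78, in intron 5 of ppfr-1, which encodes a regulatory subunit of protein phosphatase 4, had 15.5 in replicate 1 and 22.2 in replicate 2.

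Nuclear hormone receptor genes supplied 2 of the 18 hosts. In nhr-19 the peak of rank 37 had a signal of 30.0 in replicate 1 and 11.9 in replicate 2, 1594 bp into an intron 1 of 4213 bp. In nhr-46 the peak of rank 98 had 23 and 13.2, in an intron 1 of 7906 bp. Both belong to a family of transcription factors that is large in the worm. The other hosts, T28B11.1, T27D12.6, Y62E10A.13, K11D2.1, D2023.3, pgph-2 and Y48C3A.5, held 1 peak each, of rank 43 to 118 and pooled signal 49.1 to 35.6.

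**Figure D1:**
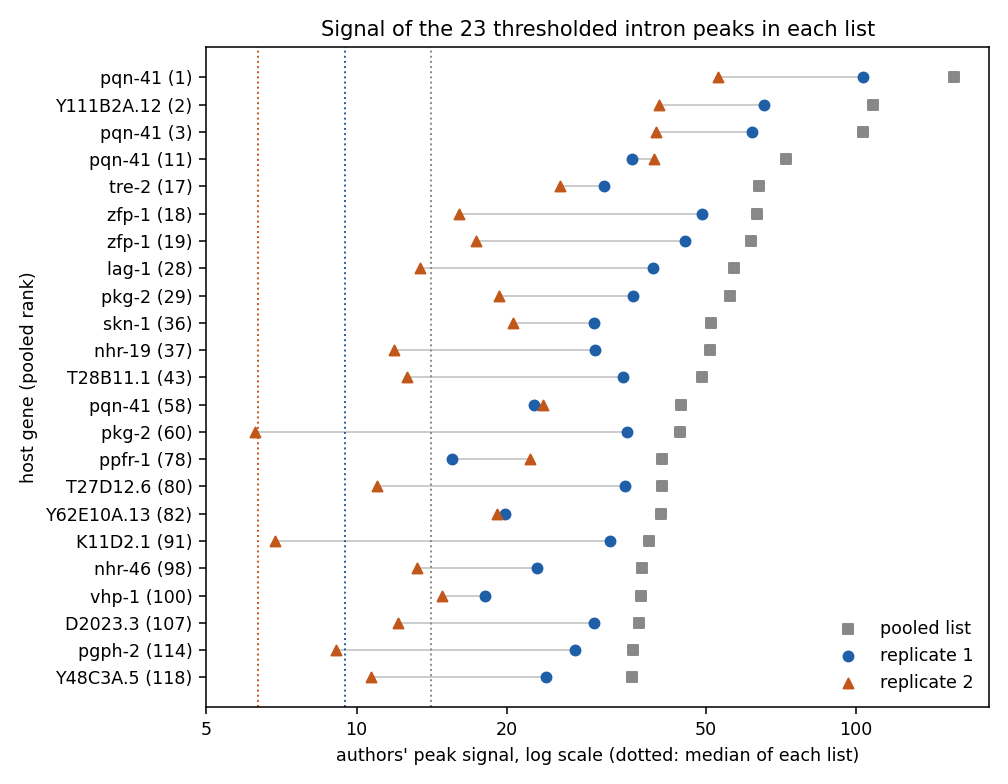
The authors' peak signal (log scale) of the 23 thresholded intron peaks in the pooled list (squares), replicate 1 (circles) and replicate 2 (triangles), with the median of each list as a dotted line. In 20 of 23 the circle lies to the right of the triangle, and the exceptions are a peak in ppfr-1 and the peaks of rank 11 and 58 in pqn-41.

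Presence in both replicate lists fell step by step with pooled rank. All 23 thresholded intron peaks overlapped a peak of both replicate lists by at least 1 bp, against 1804 of all 5755 intron peaks (31.3%) and 33.8% of all pooled peaks. The share was 86.0% at pooled rank 126 to 1000, 68.1% at 1001 to 5000, 38.3% at 5001 to 15000 and 15.9% below that. Other autosomal peaks had 96.9% (63 of 65) in the thresholded list and 86.1%, 69.4%, 39.5% and 16.5% at these lower ranks, close to the intron peaks throughout. Since the pooled list was made from the reads of both replicates, these shares are not independent of the pooled rank. The thresholded list is also labelled as an IDR list, a cut made on agreement between replicates. Its share in both lists is therefore set in part by how it was chosen.

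The replicates' own rankings were less alike. Among the 125 strongest peaks of replicate 1, peaks that overlapped an intron peak accounted for 27 of the 5755 (0.469%, against 0.5% of all pooled peaks). For replicate 2 the count was 23 (0.4%, against 0.48%). Of the 23 thresholded intron peaks, 17 overlapped one of the 125 strongest peaks of replicate 1, 12 did so in replicate 2, 9 did in both and 3 in neither. Their median rank was 49 in replicate 1 and 90 in replicate 2. In replicate 2, 5 of them ranked beyond 1000.

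Replicate 1 had the higher signal at 20 of the 23, and its whole list has the higher median signal. The log2 ratio of replicate 1 to replicate 2 had a median of 0.96 (SD 0.76 over 23 peaks), against 0.63 over the 1804 intron peaks found in both lists. With each list divided by its own median signal, the median log2 ratio was 0.38 over the 23 and 0.05 over the 1804, and 16 of the 23 had the higher value in replicate 1. The second peak of pkg-2 had the largest ratio of the 23, 2.47, and ranked 38 in replicate 1 and 15545 in replicate 2. K11D2.1 followed with 2.23, from a signal of 32.2 at rank 49 in replicate 1 and 6.88 at rank 11891 in replicate 2. Both of these rest mainly on replicate 1. At the other end, ppfr-1 had -0.52, from rank 1646 in replicate 1 and rank 20 in replicate 2, and the pqn-41 peak of rank 11 had -0.14. Across the 1804 intron peaks in both lists, Spearman's rho of the signals was 0.08 and Pearson's r of their log2 values was 0.22, and across the 23 thresholded peaks these were 0.30 and 0.46. These points share 2 libraries and a list cut at a fixed length, so the correlations are descriptions.

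Thresholded intron peaks lay in long introns. Their host introns had a median length of 6824 bp (range 1550 to 19927 bp), against 766 bp (38 to 23952 bp) for all 5755. Of the 23, 21 (91.3%, interval 72.0% to 98.9%) lay in introns over 3000 bp, and the exceptions were T27D12.6 with 1550 bp and D2023.3 with 1754 bp. The interval counts the 23 as independent, although they lie in only 19 introns. Since 4 share the pqn-41 intron and 2 the pkg-2 intron, it is likely too narrow. At pooled rank 126 to 1000 the share over 3000 bp was 29.3% (44 of 150), at 1001 to 5000 it was 23.5%, at 5001 to 15000 it was 21.2%, and below that it was 20.1%. Of the intron bases that meet the rule, 17.6% lie in introns of 3001 to 10000 bp and 3.82% in longer ones. At this limit of 3000 bp, intron peaks from rank 1001 on were within a few percentage points of the available bases, and the thresholded peaks were not. Among shorter introns all intron peaks departed from the available bases too: introns of 1001 to 3000 bp are 29.3% of the bases and held 20.5% of the peaks, and introns of up to 300 bp are 15.6% and held 21.6%.

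**Figure D2:**
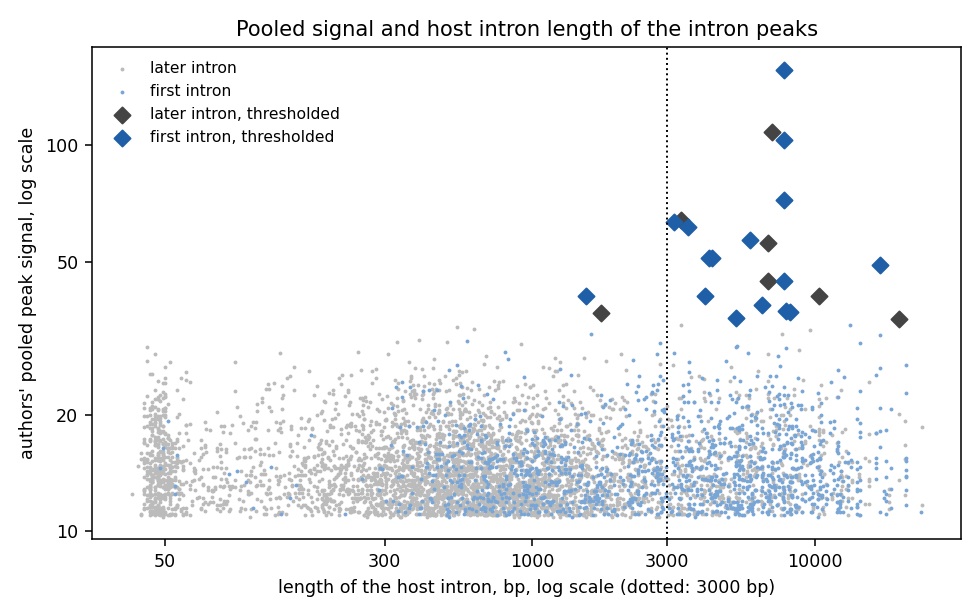
Pooled peak signal against the length of the host intron (both log scales) for all 5755 intron peaks, with first introns in blue, later introns in grey and the 23 thresholded peaks as diamonds. All but 2 of the diamonds lie to the right of the dotted line at 3000 bp, and no intron of up to 1000 bp holds one.

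Per length of available intron, thresholded summits numbered 4.75 per Mb in introns of 3001 to 10000 bp and 3.64 per Mb in introns over 10000 bp. They numbered 0.317 per Mb in introns of 1001 to 3000 bp, and none lay in the 3.36 Mb of introns of up to 300 bp or the 7.25 Mb of those of 301 to 1000 bp. For all intron peaks the order was different, with 369 per Mb in introns of up to 300 bp, 187 per Mb in those of 1001 to 3000 bp and 282 per Mb in those over 10000 bp. The ranks 1 to 1000 had 9.82 per Mb in introns of up to 300 bp, 4.43 per Mb in those of 1001 to 3000 bp and 17 per Mb in those over 10000 bp. Depth in reads is not known from these lists, so these densities carry no counting interval of reads.

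First introns held 16 of the 23 thresholded peaks (69.6%, interval 47.1% to 86.8%), against 1383 of 5755 intron peaks (24.0%). This interval too counts peaks that share an intron as independent, so it is likely too narrow. Intron order was the earliest position of that intron in any transcript that uses it. First introns make up 22.4% of the available intron bases, and thresholded summits numbered 3.31 per Mb there, 0.269 in the second ones, 0.313 in the third ones and 0.51 in the fourth and later. Long introns are more often first introns: among the other intron peaks in introns over 3000 bp, 57.9% were in first introns, and among the thresholded ones 71.4% (15 of 21). Weak peaks of long introns thus had a share nearer to that of the thresholded peaks than to that of all intron peaks. The share rested on replicate 1 in part. With each replicate's own 125 strongest peaks, 22 met the rule in each list, of which 15 (68.2%) lay in first introns in replicate 1 and 9 (40.9%) in replicate 2, with a median intron length of 6203 bp and 3995 bp.

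**Figure D3:**
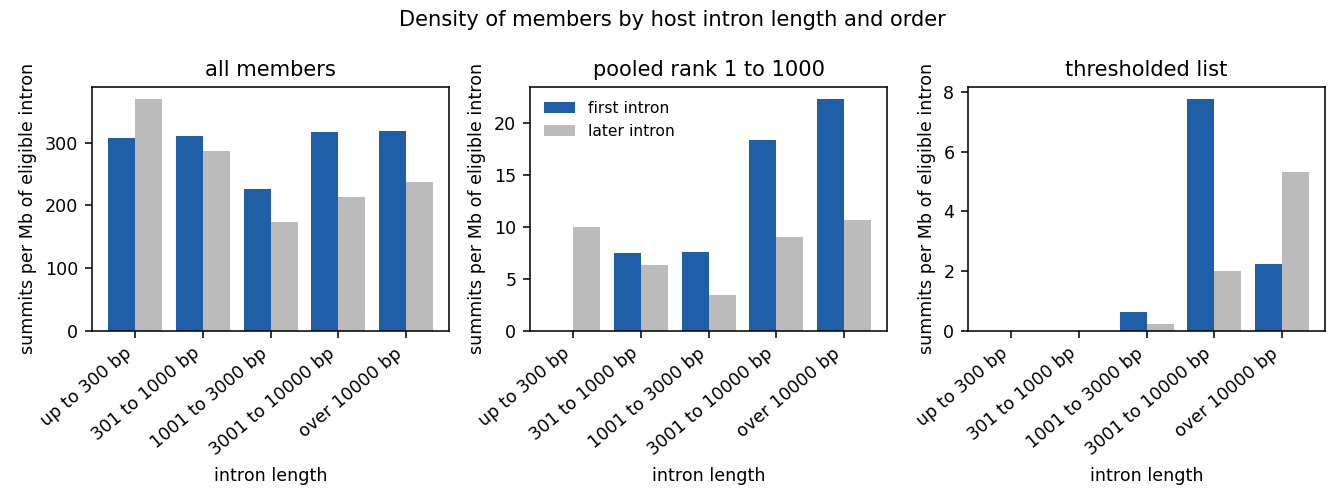
Summits per Mb of intron that meets the rule, by length of the host intron and for first (blue) and later (grey) introns, in all intron peaks, in ranks 1 to 1000 and in the thresholded list. Thresholded summits reach 7.77 per Mb in first introns of 3001 to 10000 bp, where all intron peaks have 317 per Mb.

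The thresholded intron peaks stood well away from exons. The nearest coding exon was at a median of 1594 bp from the summit (456 to 5809 bp), against 171 bp for all intron peaks. In all 23 the whole peak of 384 bp was clear of coding exons, against 47.1% of all intron peaks and 75.4% of the 65 other autosomal thresholded peaks. In introns over 3000 bp, where the other intron peaks were clear of coding exons in 95.7%, this contrast was smaller. Dividing these introns into 3 equal parts, 8 thresholded summits lay in the part next to the 5' splice site, 9 in the middle and 4 in the part next to the 3' splice site. For all 1228 intron peaks in such introns the shares were 38.4%, 36.3% and 25.3%. The nearest coding start was at a median of 2020 bp (652 to 8179 bp). In 9 of the 23 a coding start of another transcript lay inside the bounds of the host intron, as in 704 of all 5755 intron peaks. In introns over 3000 bp this was so for 9 of 21 thresholded peaks and 620 of all 1228 intron peaks.

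**Figure D4:**
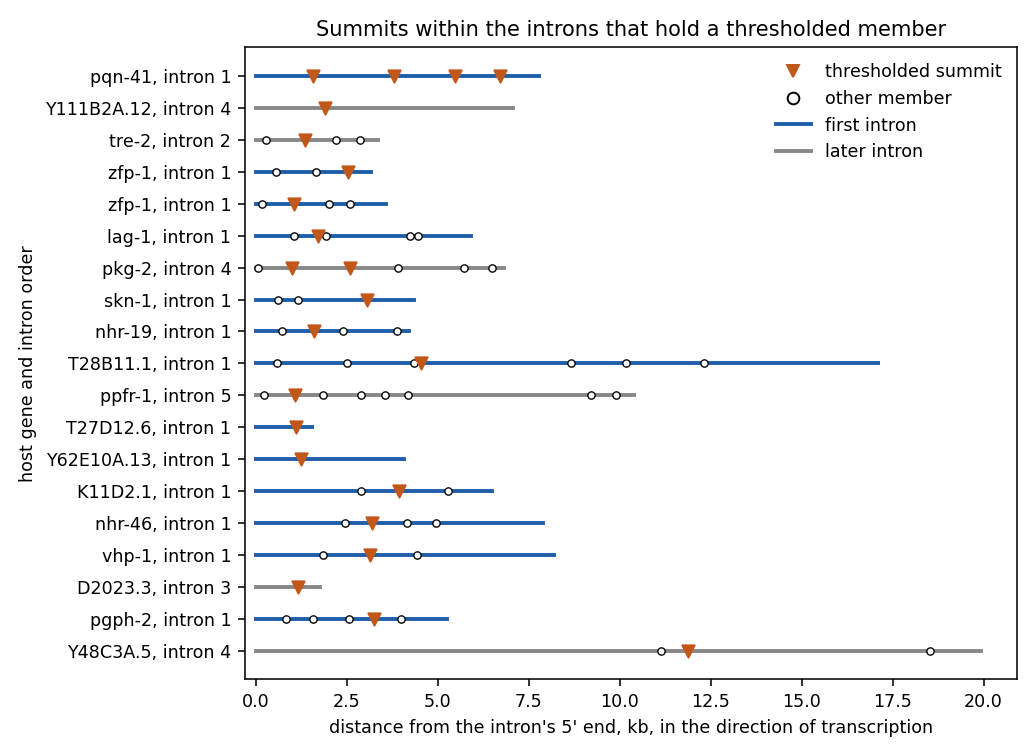
The 19 introns that hold a thresholded summit, drawn to scale from their 5' end (kb), with thresholded summits as filled triangles, other intron peaks as open circles, first introns in blue and later introns in grey. The pqn-41 intron carries 4 triangles and no circle, and the pkg-2 intron carries 2 triangles and 4 circles.

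Thresholded intron peaks lay near noncoding genes less often than other autosomal thresholded peaks. Of the 23, 3 (13%) had their summit within 200 bp of a noncoding gene, and these were the peaks in tre-2 (T05A12.7, 76 bp away), skn-1 and T27D12.6 (T27D12.8, 14 bp away). Of the other 65 autosomal thresholded peaks, 23 (35.4%) did. The rule itself removes summits in any exon, noncoding ones included, so the difference is set in part by the rule. In the whole set, 7.52% of intron peaks lay within 200 bp of a noncoding gene, against 9.02% of the other autosomal peaks. With only 3 of the 23, no direction can be read against the 7.52%.

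GC content was high at the thresholded intron peaks. The 200 bases around the summit had a mean GC content of 48.6% (SD 5.44, n = 23, range 40.5% to 57.0%), against 33.4% (SD 6.87) for all 5755 and 31.9% for the available intron. Sequence 1000 bp to either side averaged 37.1%, and in all 23 the summit window lay above its own flanks. The widest gaps included Y62E10A.13, with 55.0% at the summit and 34.2% beside it, and lag-1, with 54% and 36.8%. The narrowest included T28B11.1, with 40.5% and 40%. Intron peaks of rank 126 to 1000 had 35.7% and flanks of 35.4%, and the other 65 autosomal thresholded peaks had 45.5%. Intron peaks of rank over 1000 had 31.9% in the 50 bp just before the summit, the value of the available intron. They had 35.4% at 975 bp from it, a distance beyond the median host intron of all intron peaks (766 bp). That outer value is thus often not from the same intron. Whether GC content in the libraries moves the authors' signal was not tested.

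**Figure D5:**
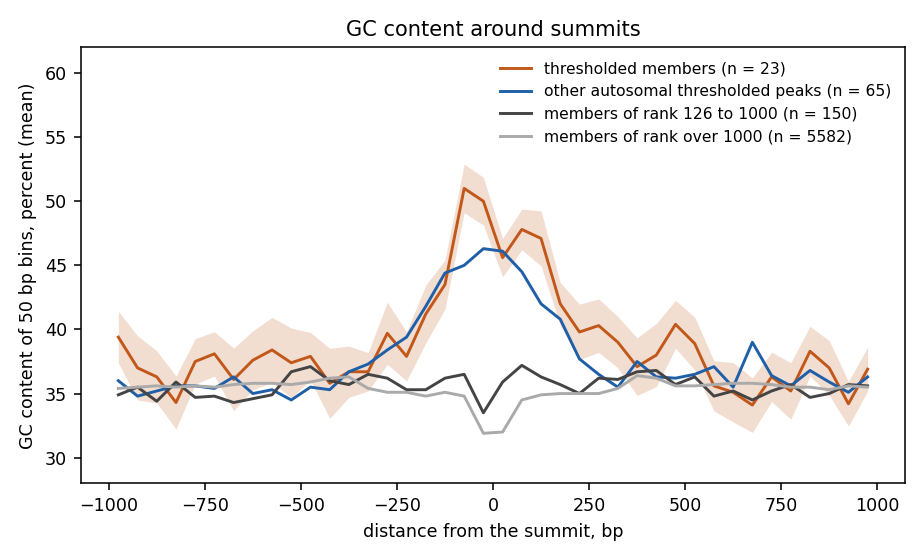
Mean GC content in bins of 50 bp around the summit for 4 sets of peaks, with a band of 1 standard error for the thresholded intron peaks. The thresholded intron peaks reach 51.0% at 75 bp before the summit. The intron peaks of rank over 1000 have 31.9% at 25 bp before it, the value of the available intron.

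Short motifs were counted in the 200-base windows on both strands. GAGAGA, the repeat bound by the GAGA factor in Drosophila, was present in 14 of 23 thresholded intron peaks (60.9%), 39 of 65 other autosomal thresholded peaks (60%), 9.16% of all intron peaks and 10.4% of all pooled peaks. In the 354 weaker intron peaks whose GC content lay between the quartiles of the 23 (44.2% to 53.8%) the share was 20.6%. GTCT, the 4-base box bound by SMAD proteins, was present in 22 of 23 and in 60 of the 65 other autosomal thresholded peaks (92.3%). Its share was 67.5% in those 354 windows and 60.7% in all pooled windows. GGCGCC, a GC-rich site also bound by SMAD proteins, was present in 4 of 23 (17.4%) and in 6 of those 65 (9.23%). Its share was 6.5% in the 354 and 1.27% in all pooled windows. CACGTG, an E-box recognised by factors of the basic helix-loop-helix class, was present in 4 of 23 (17.4%), namely in both pkg-2 peaks, ppfr-1 and Y62E10A.13. It was also in 13 of the 65 (20%), in 5.65% of the 354 and in 3.4% of all pooled windows.

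The other motifs are given beside the same 354 windows of like GC content. TGATAA, the core site of endodermal and epidermal zinc finger factors of the GATA class, was present in 4 of 23 (17.4%), in 7.06% of the 354 and in 20% of pooled windows. AGGTCA, to which many nuclear receptors bind, was present in 1 of 23 (4.35%), in 6.21% of the 354 and in 4.84% of pooled windows. TTTTCAG, the worm 3' splice consensus, was present in none of the 23 and in 2 of the 65 other autosomal thresholded peaks (3.08%). It was in 12.1% of the 354 and in 23% of all intron peaks. The 23 summits lay at least 456 bp from a coding exon, so their windows reach no splice site of one. The 354 were matched on GC content only, not on distance to exons, so these shares are not on an equal footing. CCGGAA (an ETS site), TGACTCA (an AP-1 site) and TGTTTAC (a forkhead site) were in none of the 23, in 10.5%, 1.13% and 2.54% of the 354, and in 6.83%, 2.12% and 2.41% of pooled windows. Motif matches are descriptions of letters in these windows. Runs of at least 5 CA or TG units were present in 4 of 23 (17.4%), in pqn-41 (rank 1), lag-1, pkg-2 (rank 29) and Y48C3A.5. Their share was 7.69% in the 65 other autosomal thresholded peaks and 0.799% in all intron peaks.

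The 10-base word marked in the printed windows was the one shared by most host genes among all words of that length in the 23 windows, so its count in them is set by that choice. Read as GAGACGCAGA or as its reverse complement TCTGCGTCTC, it was present in 6 of 23 windows, in the hosts pqn-41 (ranks 1 and 11), Y111B2A.12, zfp-1, Y62E10A.13 and pgph-2. It contains GTCT on one strand, so the counts of both overlap. In the 65 other autosomal thresholded peaks, which had no part in the choice, it was present in 20 (30.8%). Its share was 2.67% in intron peaks of rank 126 to 1000, 0.782% in all intron peaks and 0.76% in all pooled peaks.

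Measures of repeated sequence at the thresholded intron peaks went in different directions. None of the 23 windows held a 31-base word found elsewhere in the genome, as was true of 87.6% of all intron peaks. The share of the window in lower case in the RefSeq assembly, which marks repeats and simple sequence, had a median of 9.5%, against 40% for all intron peaks and 29.5% for all pooled peaks. It reached 48% at the pqn-41 peak of rank 11. Other thresholded peaks had low medians too, 11% in the 65 other autosomal ones and 5.25% in the 10 in X introns. Runs of CA or TG, counted above, were more frequent at the 23, with 17.4% (4 windows) against 0.799% of all intron peaks. They were present in 5 of the 65 other autosomal thresholded peaks (7.69%) and in 0 of the 10 in X introns.

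All 5755 intron peaks were spread over 3599 host genes, 25.1% of the 14356 coding genes with any available intron. Of these hosts, 2531 held 1 peak, 922 held 2 to 4 and 146 held 5 or more. The number followed the amount of intron: across hosts, Spearman's rho between peaks and available bases was 0.54 (n = 3599 genes, which share the same libraries). The genes with most peaks were lim-9, a LIM-domain gene, with 15 in 29.8 kb of available intron, kcc-2, a potassium chloride cotransporter gene, with 12 in 24.6 kb, the netrin receptor gene unc-5 with 12 in 23.7 kb, the FOXO gene daf-16 with 11 in 18.9 kb and the cadherin gene hmr-1 with 11 in 45.5 kb. Their best pooled ranks were 2710, 426, 8860, 157 and 1797, and none held a thresholded peak. By density daf-16 had 5.81 and hmr-1 had 2.42 peaks per 10 kb, and the whole had 2.67. The single intron with most peaks, 10, was the 14446 bp intron 1 of daf-5, the Sno/Ski gene of the dauer pathway.

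Genes of the Sma/Mab pathway itself held only weak intron peaks. Of 11 autosomal members of the list with available intron, 6 were hosts (54.5%, against 25.1% of all coding genes). They held 10 peaks in the list's 25.1 kb, or 3.99 per 10 kb, against 2.67 over all coding genes. None of these peaks reached rank 1000. The ligand gene dbl-1 had a best rank of 10184, and its peak had a signal of 13.1 in replicate 1 and was absent from the list of replicate 2. The gene of the common SMAD, sma-4, had a best rank of 2080, with 11.3 in replicate 1 and 7.96 in replicate 2. In unc-40, which encodes a netrin receptor that also acts in this pathway, the best rank was 1680, and crm-1 had 11976. The peaks of unc-40 and crm-1 were likewise absent from the list of replicate 2. Median available intron was 1.94 kb per gene of the list and 0.591 kb over all coding genes, so the share of hosts is not on an equal footing.

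The related DAF-7 dauer pathway, the other TGF-beta branch of the worm, had 16 peaks in 23 kb (6.95 per 10 kb, against 2.67 over all coding genes), of which daf-5 alone held 10. The best peak of daf-5, of rank 204, had a signal of 32.6 and rank 46 in replicate 1, and a signal of 7.59 and rank 8462 in replicate 2. The SMAD genes daf-8 and daf-14 had best ranks of 1065 and 2733, and the receptor gene daf-1 had 1711. The daf-14 peak was absent from the list of replicate 2, and those of daf-8 and daf-1 were in both lists. Of 6 genes with available intron (median 1.97 kb, against 0.591 kb), 4 were hosts (66.7%, against 25.1% of all coding genes). Among them daf-5 alone had a peak of rank 1 to 1000.

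Among regulators of the M lineage, the postembryonic mesoderm in which sma-9 acts, 7 of 13 genes were hosts (53.8%, against 25.1% of all coding genes), with 18 peaks (3.75 per 10 kb, against 2.67). The median available intron was 2.04 kb per gene of this list and 0.591 kb over all coding genes. The zinc finger gene fozi-1 had the best rank, 975, with a signal of 16.5 in replicate 1 and no peak in the list of replicate 2. The SoxC gene sem-2 (rank 4595) was likewise absent from the list of replicate 2, and the Notch receptor gene lin-12 (3287) was in both lists. Of 6 Hox genes, with a median of 2.9 kb of available intron, 4 were hosts (66.7%, 4.87 peaks per 10 kb), with best ranks of 6701 (nob-1), 13659 (lin-39), 22326 (mab-5) and 26338 (egl-5), so none was near the thresholded list.

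Thresholded hosts fell in 3 of the 14 gene lists examined. These were the nuclear hormone receptors (2 hosts with a thresholded peak among 244 genes with available intron), the Notch pathway (lag-1, 1 of 10) and the SWI/SNF and ZFP-1 list (zfp-1, 1 of 10). Over all coding genes with available intron, 18 of 14356 (0.125%) had one. With 1 or 2 genes per list, nothing can be read from the lists' shares. In the receptor list 56 of 244 genes (23%) were hosts, against 25.1% of all coding genes, with 3.26 peaks per 10 kb, against 2.67. In the Notch list the cofactor gene sel-8 had a best rank of 384, with a signal of 22.8 in replicate 1 and no peak in the list of replicate 2. The SWI/SNF subunit genes let-526, pbrm-1 and swsn-6 had best ranks of 1028, 3512 and 4379.

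Long genes of neurons and muscle were frequent hosts. The list of voltage-gated channels also takes in a leak channel and a channel partner. All 14 of its genes with available intron were hosts, and so were 13 of 14 genes of the synapse, against 25.1% of all coding genes. These lists have medians of 6.61 and 6.18 kb of available intron per gene, against 0.591 kb over all coding genes, and they had 3.45 and 3.48 peaks per 10 kb, against 2.67. A peak of rank 1 to 1000 was present in 3 of the 14 genes of the channel list (21.4%) and 2 of the 14 synapse genes (14.3%), against 1.11% of all coding genes. In the channel list these were unc-79, which encodes a partner of the NALCN channel (best rank 325), the potassium channel gene shw-1 (662) and the sodium leak channel gene nca-2 (811). In the synapse list they were casy-1, the calsyntenin gene (296), and rab-3 (642). All of these rest mainly on replicate 1, where unc-79, shw-1, nca-2, casy-1 and rab-3 ranked 231, 568, 1357, 415 and 289. In replicate 2 the peak of nca-2 was absent from the list. Those of unc-79, shw-1, casy-1 and rab-3 ranked 18328, 29132, 15411 and 13180 there.

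Over all coding genes with available intron, 25.1% were hosts, with 2.67 peaks per 10 kb and a median of 0.591 kb of available intron. Of 17 muscle genes, with a median of 2.71 kb of available intron, 11 were hosts (64.7%, 3.89 peaks per 10 kb). The best rank was in the perlecan gene unc-52 (241), whose peak ranked 5940 in replicate 1 and 77 in replicate 2. Axon guidance genes, with a median of 4.84 kb, had 13 hosts of 20 (65%, 3.6 peaks per 10 kb), with the best rank of 840 in unc-53. That unc-53 peak was absent from the list of replicate 2. Wnt pathway genes, with a median of 1.33 kb, had 8 of 17 (47.1%, 2.03 peaks per 10 kb), with the best rank of 3346 in lin-17. Of 43 homeobox ceh genes, with a median of 0.816 kb, 12 were hosts (27.9%, 2.28 peaks per 10 kb), with the best rank of 2183 in ceh-22. The list of skin and gut GATA factors, with a median of 1.67 kb, had 5 hosts of 7 (71.4%, 3.57 peaks per 10 kb), with best ranks of 273 in egl-27 and 583 in end-1. None of the lists from the channels to the GATA factors held a thresholded intron peak.

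The intron peaks next in rank to the thresholded list, of rank 127 and 128, were in clh-2, a chloride channel gene, and in the same intron of tre-2 as the peak of rank 17. The clh-2 peak had a signal of 17.1 in replicate 1 and 9.07 in replicate 2. At the 500 bp limit of the rule, the 400 summits at 401 to 500 bp from a coding start had a median signal of 14.3, and the 364 at 501 to 600 bp had 14.1, with 0 thresholded peaks in either.

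By chromosome, thresholded intron peaks numbered 2 on I, 4 on II, 7 on III, 7 on IV and 3 on V. Of the 7 on III, 4 are those of the pqn-41 intron. Per Mb of available intron this was 0.411 on I, 1.11 on II, 1.62 on III, 1.62 on IV and 0.673 on V, while all intron peaks had 249 to 284 per Mb.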

How the data were processed

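The data are ChIP-seq peak lists of eGFP-tagged SMA-9 from 2 biological replicates in 1 group. The authors deposited relaxed lists of peaks and background per replicate and for pooled reads, and a thresholded list, in ce11 per the file names and labels. The peak signal in column 7 of the deposited lists is the authors' own value with no scale stated, and the score in column 9, often below 0, is of unknown scale per the values and was used only to rank. Aligner, caller and threshold were not given in the sources used here. The 4 lists in ce10 were not used. Read depth is unknown. Peaks have 1 width per list (384 bp pooled), so a summit is a peak centre.

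Summits were placed on Ensembl release 115 genes of WBcel235, with sequence from RefSeq. The host intron was the shortest intron over the summit. Replicates were matched by an overlap of 1 bp. Intervals are exact (Clopper-Pearson, 95%). No test between groups was possible with 1 group, and no test between sets of peaks was made. Scripts ran in Python 3.11.15 with pandas 2.3.3 and numpy 2.4.6, and placement was tested on simulated annotation. The members, gene lists and motifs were chosen with earlier results of these data known. Genes named are hosts of the 20 strongest members and of every thresholded member, the 5 hosts with most members, introns with 2 or more thresholded members, up to 4 hosts per list, and the 5 largest and 5 smallest replicate ratios. The intron peak of rank 127 and the shared word were chosen after values were seen. Starts, exons, annotation, rank, windows and replicate lists were varied.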

Additional observations from a re-analysis of the deposited data

How the results depend on the processing

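No paired analysis was possible because there is 1 group. The number of intron peaks was 5755 and stayed within 1.5 times under every alternative run except with pooled ranks 1 to 15000 only (2705). With those, the thresholded share was 0.85%, the median rank 7940, the first-intron share 25.5% and the share in both replicate lists 48.8%, all of which follow from keeping fewer, stronger peaks. With 1000 bp from coding starts in place of 500 bp, the median rank was 15746, the first-intron share 18.6% and the median intron 868 bp, and with 200 bp they were 15681, 31.3% and 715 bp. With exons of coding genes only the median rank was 15757, with starts of any class the first-intron share was 22.8%, with RefSeq genes it was 22.1%, and with order in the longest transcript 19.6%. The longest intron over the summit gave a median of 819 bp. The 62 strongest thresholded peaks gave a thresholded share of 0.243%, and the score gave a median rank of 14193. Summits within 100 bp put 16.2% of intron peaks in both replicate lists, and an overlap of 50% put 22.8%. The causes of the other shifts were not tested.

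With 1 replicate list alone, the count was 5539 to 5942 and the median rank in that list 15321 to 15391. Each replicate's own 125 strongest peaks took the place of the thresholded list here. Of the intron peaks, 0.37% to 0.397% were among them. The first-intron share was 22.9% to 23.6% and the median intron 724 to 794 bp. The share in the other list too was 30.9% to 32.4%, and the mean GC content 32.4% to 35.1%. Some alternatives were added after seeing the data. The first-intron share was 69.6% for the thresholded intron peaks, and 40.9% to 68.2% for intron peaks among each replicate's own 125 strongest. The latter are partly different peaks. Of 22 per list, 16 in replicate 1 and 13 in replicate 2 were among the pooled 125 strongest. The share in introns over 3000 bp was 91.3% for the thresholded intron peaks and 72.7% to 77.3% for those of the replicates. It was 100% among the 62 strongest thresholded peaks. Without the pqn-41 intron, the thresholded intron peaks had a first-intron share of 63.2% and a share in introns over 3000 bp of 89.5%. Unknown read depth limits any statement on weak peaks.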

Other observations

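Some strong peaks inside introns fall outside the rule because their summit lies in an exon of a noncoding gene. Of 105 such autosomal summits away from coding starts, 4 (3.81%) were thresholded. Of these, 2 lie in let-526, a gene for a subunit of the SWI/SNF complex. The let-526 peak of rank 20 had a signal of 47.8 in replicate 1 and 6.42 in replicate 2, and that of rank 42 had 39 and 12.8. The others were in vhp-1, of rank 23, with 29.9 and 26.2, and in T28B11.1, of rank 90, with 25.7 and 17.5. Both of these genes also host thresholded intron peaks that meet the rule.

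On the X chromosome the same rule gave 1739 peaks, of which 10 were thresholded (0.575%, exact 95% interval 0.276% to 1.05%). Their hosts included mom-1, a Wnt secretion gene, with rank 7, and the nuclear hormone receptor genes nhr-3 (rank 12), nhr-14 (rank 40) and nhr-27 (rank 86). Of these 10, 3 lay in first introns and 5 in introns over 3000 bp. Their mean GC content was 41.1% (SD 7.26, n = 10), against 48.6% in the 23 autosomal ones, and GAGAGA was present in 3 of 10. These differences were not tested.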
